A study of Mus musculus with 7 samples.

Results

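Genes of the colony-stimulating factors and their receptors were followed through the mouse epidermis after bone marrow transplantation (BMT): the ligand genes Csf1 and Il34 and the receptor genes Csf1r, Csf2ra, Csf2rb, Csf3r and Flt3. They were taken by symbol, as a list drawn up with earlier results of these data known, and they are 7 of the 31907 genes named in the 3 expression tables, with 15155 genes listed for donor cells, 26383 for keratinocytes and 23737 for host myeloid cells. All 7 symbols were found for each of these. The ligands were read across keratinocyte clusters and the receptors across myeloid clusters, with the opposite reading given as a background.

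All cells came from the epidermis of lethally irradiated male CD45.2 C57BL/6 hosts, 3 weeks after they were given female CD45.1 C57BL/6 marrow, and RNA of single cells was counted in droplets by unique molecular identifiers (UMIs) with a 5' library kit. Donor CD11b+MHCII+ cells gave 4 libraries, 3 under the label BMT (replicates 1 to 3) and 1 under BMT plus T-cells (the T-cell library). For CD45neg keratinocytes of the host each label had 1 library, and the CD11b+MHCII+ cells of host origin had 1, under BMT. The design text of the series has hosts receive CD4 T cells together with CD8 cells of the Matahari line (specific for a male antigen) without exempting the BMT libraries, while the sample labels give T cells to 2 of the 7 libraries only, so the comparison below is one of labels. The study's methods describe cells from pooled mice and combined sorting experiments, and a library is therefore a pool and not an animal. For clusters, p values measure how differences within a library vary from pool to pool, with a spread shared by all clusters of the fit. The keratinocyte libraries carry different labels, so in their fit this spread holds pool and label together. For the donor labels they measure the spread between pools. No untransplanted epidermis was analysed here.

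Colony-stimulating factors are secreted proteins that keep myeloid cells alive and set how they mature. Csf1 (M-CSF) and interleukin-34 bind the same receptor tyrosine kinase, Csf1r, and keratinocyte interleukin-34 is known as the factor that embryonic Langerhans cells, the resident myeloid cells of the epidermis, depend on. Csf2ra and Csf2rb form the receptor of GM-CSF (Csf2), Csf3r is the G-CSF receptor of neutrophils and some monocytes, and Flt3 is the receptor tyrosine kinase of dendritic cell progenitors and dendritic cells.

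The donor libraries held 226 to 8382 cells with a median of 7021.5 to 13387 UMIs per cell, the keratinocyte libraries 2836 (BMT) and 2590 cells (BMT plus T-cells) with 8895.5 and 8834 UMIs, and the host library 781 cells with 4376 UMIs. Any pair of libraries shared at most 7 cell barcodes. In another pair the shared barcodes reached the largest share, 0.443% of the smaller library. The donor cells fell into 9 clusters, and their deposited names are used here: classical monocytes (Mono), interferon-stimulated (ISG) monocytes, Hmox1+ monocytes, S100a+ monocytes, Mrc1+ macrophages, monocyte-derived cells (MC), and resident, cycling and migrating monocyte-derived Langerhans cells (mLC). Langerhans-like cell markers (Cd207, Epcam, Mfge8, Cldn1) summed to 64.1 to 89.8 UMIs per 10000 UMIs of the cell (CP10K) in resident mLC and to 0.442 to 1.65 in Mono. The S100a+ monocyte cluster carried neutrophil markers (Ly6g, Mmp8, Retnlg, Cxcr2, Camp, Ngp, of which 5 are in the donor table and Ly6g is not) at a summed 37.6 to 87.2 CP10K, against at most 0.873 in any other cluster and library, with Camp at 0 in 2 of its 3 libraries. It also carried the monocyte list (Plac8, Ly6c2, Lyz2, Chil3) at 9.61 to 28.1, and is called the S100a+ cluster here. Levels below are means of linear CP10K over the cells of a library and cluster, given where that cluster had 20 or more cells in the library unless a cell number is printed. Because the clusters were defined on expression values of the same cells, a difference between clusters describes them and is no independent evidence of them.

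Before the values, the sequences show why the pair Csf2rb and Csf2rb2 has to be read with care. Csf2rb (GRCm38.p6 15:78325800-78351001), the beta subunit shared by the GM-CSF, interleukin-3 and interleukin-5 receptors, lies beside Csf2rb2 (15:78282507-78305721, minus strand), a mouse paralog that serves interleukin-3. The first 120 coding bases of both, taken from the GENCODE vM39 transcripts on GRCm39, differ at 4 bases, which are in capitals.
Csf2rb: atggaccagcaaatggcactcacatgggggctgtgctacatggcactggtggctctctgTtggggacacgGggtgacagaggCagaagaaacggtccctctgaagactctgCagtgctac
Csf2rb2: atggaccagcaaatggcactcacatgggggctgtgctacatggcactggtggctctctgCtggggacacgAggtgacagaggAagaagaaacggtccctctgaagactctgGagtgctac
Of the 470 overlapping 31-base words in the first 500 bases of each transcript, where 5' reads start, 36.2% of those of Csf2rb also occur in Csf2rb2 and 38.7% of those of Csf2rb2 in Csf2rb. The other members had 0 of 470 shared with any other gene, except Il34 with 2. The deposited split between both paralogs is uncertain to that extent, and the Csf2rb call below is therefore also given with the paralogs summed.

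Il34 was a keratinocyte transcript in these data. It had 2810 and 2671 UMIs in the keratinocyte libraries, and 50.2 and 51.2% of keratinocytes had at least 1 (21.4 and 21.9% after each cell was thinned to 2500 UMIs). In donor myeloid cells it had 1 UMI in the T-cell library and 1, 13 and 1 UMIs in BMT replicates 1 to 3, in 0.0389 to 0.442% of cells at comparable median depth. Those donor shares are read as background, not as expression.

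Both ligand genes were highest in differentiated keratinocytes. Il34 averaged 1.87 CP10K in the Differentiated cluster under BMT and 2.14 under BMT plus T-cells, against 0.966 and 1.08 in the Basal cluster. Its level in the Follicular cluster was 0.650 and 0.592, in KC_Five 0.604 and 0.543, and in KC_Four 0.512 and 0.567. The 2 libraries gave the same first 2 ranks, with gaps wider than the difference between libraries, while the order of KC_Four and KC_Five was not the same in both. The Basal cluster was recognised by Krt5 and Krt14 (a summed 567 and 552 CP10K for the basal keratinocyte list), the Differentiated cluster by Krt10 and Krt1 (171 and 173, differentiated keratinocyte list) and the Follicular cluster by Krt79 and Krt17 (51.6 and 49.5, follicular keratinocyte list). Markers of cycling cells (Mki67, Top2a) were highest in KC_Four, at 14.0 and 14.4, and next in KC_Five, at 5.63 and 6.55.

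Between differentiated and basal keratinocytes both ligands passed the test, in a comparison that called 30.3% of all 7650 genes tested. Il34 was 1.88-fold higher (log2 fold change 0.91 ± 0.11 SE, limma adjusted p = 1.26e-06, higher in 2 of 2 libraries). Csf1 averaged 0.233 and 0.300 CP10K in differentiated against 0.0933 and 0.151 in basal keratinocytes, 1.66-fold higher (0.73 ± 0.16, limma adjusted p = 0.00126, 2 of 2 libraries). All fold changes are on log2(CP10K + 0.1), a scale that understates the change of low genes. The share of cells with an Il34 UMI went with the level: 73.4 and 77.9% of differentiated against 47.9 and 50% of basal keratinocytes at median depths of 10113 and 10403 against 8053 and 8223.5 UMIs, and 35.3 and 39.7% against 20.5 and 21.1% after thinning. Csf1 was found in 18.1 and 23.2% of differentiated and 7.01 and 10.7% of basal keratinocytes (thinned, 5.68 and 6.52 against 1.96 and 3.50%). Without the filter on low genes the adjusted p of Csf1 was 0.0531. Csf1 reached that filter, a mean of 0.1 CP10K over all library and cluster values, only with its Differentiated values counted. Its call as higher in that cluster is therefore not independent of the filter.

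Follicular keratinocytes, which the study assigns mainly to the upper hair follicle, differed from basal ones in Il34 and not detectably in Csf1. The comparison called 25.5% of all genes tested. Il34 was 1.56-fold lower (-0.64 ± 0.11, limma adjusted p = 9.49e-05, lower in 2 of 2 libraries), with a UMI in 33.5 and 30.9% of follicular keratinocytes (11.2 and 10.8% thinned). Csf1 averaged 0.132 and 0.167 CP10K there and gave a log2 fold change of 0.18 ± 0.16 (limma adjusted p = 0.478). The Follicular cluster also carried fibroblast markers at a summed 6.66 and 5.03 CP10K and melanocyte markers at 1.17 and 2.82, against at most 0.543 and 0.0595 in the other clusters. Their part in the lower Il34 was not tested.

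**Figure D1:**
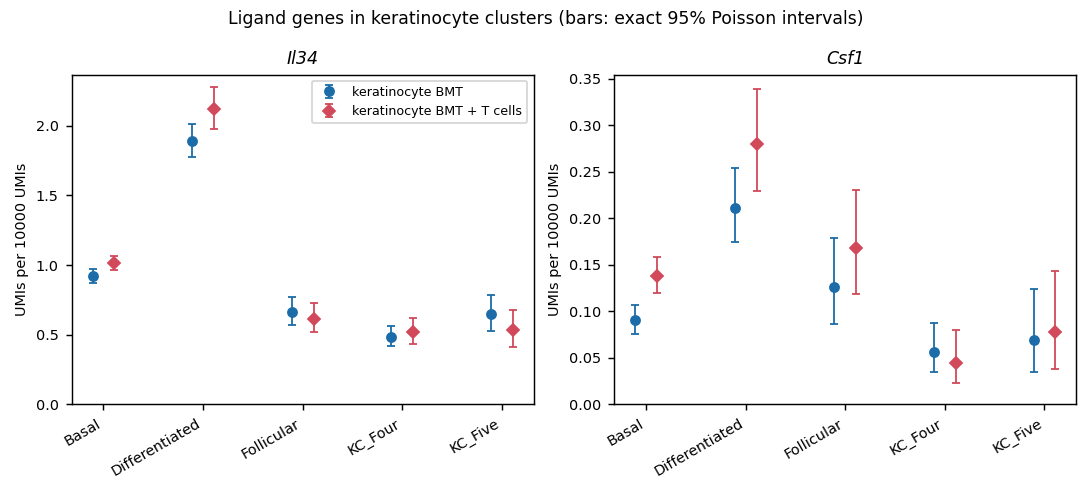
Il34 (left) and Csf1 (right) in the 5 keratinocyte clusters, as UMIs per 10000 UMIs pooled over the cells of a library (y axis), for the BMT library (circles) and the BMT plus T-cells library (diamonds, BMT + T cells in the legend), with exact 95% Poisson intervals that cover counting error only. Il34 stood at 1.89 and 2.12 in the Differentiated cluster and at or below 1.01 in the other 4, and the Csf1 intervals of both libraries separate in the Basal cluster alone.

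The keratinocyte labels are 1 library each, so their values have no test. Pooled per 10000 UMIs, Csf1 in basal keratinocytes was 0.0903 under BMT (134 UMIs) and 0.138 under BMT plus T-cells (210 UMIs), a ratio of 1.53 with a 95% counting interval of 1.23 to 1.92. In the Differentiated cluster its ratio was 1.32 (1.01 to 1.74) and in the Follicular cluster 1.33 (0.808 to 2.20). Il34 had ratios of 1.10 (1.02 to 1.19) in Basal, 1.12 (1.02 to 1.23) in Differentiated and 0.926 (0.734 to 1.17) in Follicular keratinocytes. No ligand differed by 2-fold in any cluster. Of all genes with 20 or more UMIs, 2.74% did in Basal, 2.65% in Differentiated, 3.64% in Follicular, 3.46% in KC_Five and 2.95% in KC_Four.

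The receptor genes were nearly absent from keratinocytes, which gives the background beside which the myeloid shares are read. Csf2rb and Flt3 had 0 UMIs in both keratinocyte libraries, where a floor of 3 UMIs stands at 0.00108 and 0.0012 UMIs per 10000, Csf1r had 2 and 2, and Csf3r 0 and 5. Csf2ra was the exception with 78 and 73 UMIs, in 2.54 and 2.63% of keratinocytes. Its level was highest in the Follicular cluster, at 0.0807 and 0.0801 CP10K against 0.0243 and 0.0259 in the Basal cluster, under the 0.1 CP10K that a gene needed to enter the test.

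Csf1r was the receptor most widely detected in donor cells. At least 1 UMI was found in 85.8% of cells in the T-cell library and in 91.4, 82.8 and 84.5% in BMT replicates 1 to 3 (56.5, 62.1, 58.3 and 66.5% after thinning to 2000 UMIs), against 0.0705 and 0.0772% of keratinocytes. Its level was highest in Mono, at 6.46 CP10K in the T-cell library and 5.69, 5.58 and 7.42 in BMT replicates 1 to 3. Mrc1+ macrophages came next, at 5.89, 5.74, 5.43 and 7.26 in the same order, and these neighbours did not differ beyond their spread. The lowest level was in migrating mLC, at 1.47 and 1.88 in BMT replicates 1 and 2.

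**Figure D2:**
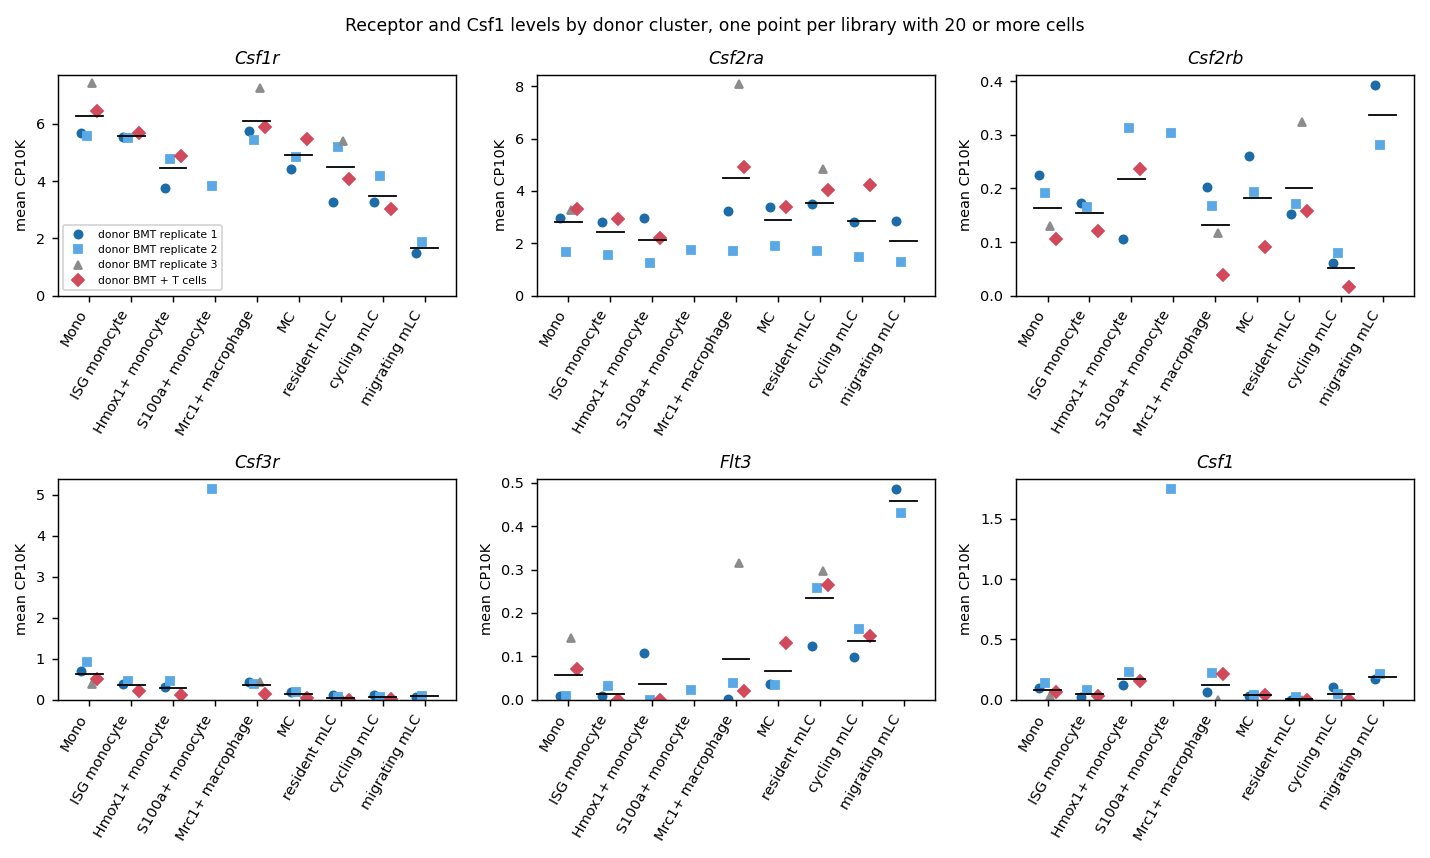
Mean CP10K (y axis, linear, a separate scale for each gene) of the 5 receptors and Csf1 in the 9 donor clusters (x axis), 1 point per library with 20 or more cells of the cluster and a line at the mean of the points. Csf1r is lowest in migrating mLC (1.47 and 1.88), Flt3 is highest there (0.485 and 0.430), and the S100a+ point of BMT replicate 2 stands alone for Csf3r (5.13) and Csf1 (1.74).

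Resident mLC against Mono sets the Langerhans-like cells beside the monocytes that enter the epidermis. Csf1r and Csf3r were lower in resident mLC and Flt3 was higher, 3 of the 5 receptors, in a comparison that called 32.7% of the 7267 genes tested. The median log2 fold change of the 5 receptors was 0.19, and that of all genes 0.14. With an added demand for a log2 fold change beyond 2, which the study's methods use, Csf3r was the 1 receptor left here, and no member was left in any other comparison. The genes left of all tested were then 4.06% here, 3.51% for resident mLC against Mrc1+ macrophages, 2.09% against MC, 0.413% for Mrc1+ macrophages against Mono, 2.61% for migrating and 1.36% for cycling against resident mLC, and 1.06 and 1.57% for differentiated and follicular against basal keratinocytes.

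Csf3r fell the most. In Mono it averaged 0.497 CP10K in the T-cell library and 0.695, 0.931 and 0.378 in BMT replicates 1 to 3. In resident mLC it averaged 0.00528, 0.112, 0.0781 and 0 in that order, and the groups did not overlap. The log2 fold change was -2.30 ± 0.22 (limma adjusted p = 7.41e-09, lower in 4 of 4 libraries), 4.93-fold on the scale with the added 0.1. Csf3r is also a neutrophil transcript, and the neutrophil list summed to 0.0417 to 0.433 CP10K in Mono and to 0 to 0.228 in resident mLC. The part of such cells in the difference was not tested.

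Csf1r in resident mLC averaged 4.09 CP10K in the T-cell library and 3.27, 5.19 and 5.39 in BMT replicates 1 to 3, each below the Mono value of its own library. The difference was small, 1.41-fold (-0.50 ± 0.12, limma adjusted p = 0.00273, lower in 4 of 4 libraries), and the ranges of the clusters met without overlap, at 5.39 and 5.58. Without BMT replicate 1 the adjusted p was 0.0872 at a log2 fold change of -0.40. Most resident mLC kept a Csf1r UMI, 81.9 to 96.1% of cells by library (45.3 to 61.7% thinned).

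Flt3 went the other way. Resident mLC averaged 0.264 CP10K in the T-cell library and 0.124, 0.259 and 0.296 in BMT replicates 1 to 3, and Mono 0.0716, 0.00885, 0.00864 and 0.141. It was 2.20-fold higher in resident mLC (1.14 ± 0.28, limma adjusted p = 0.00284, 4 of 4 libraries), although the Mono value of BMT replicate 3, on 15 UMIs, lay above the resident value of replicate 1, on 13. Without BMT replicate 2 the adjusted p was 0.0997. Flt3 reached the filter, a mean of 0.1 CP10K over all library and cluster values, only with both its resident and migrating mLC values counted. Those clusters held its highest levels, and its calls as higher there, here and below, are not independent of the filter. A Flt3 UMI was found in 11.4 to 33.3% of resident mLC and 0.548 to 11% of Mono (thinned, 2.33 to 12.8% against 0 to 1.27%), and keratinocytes had none.

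The GM-CSF receptor subunits gave no call between these clusters. Csf2ra, the ligand-binding alpha subunit, averaged 4.04 CP10K in resident mLC of the T-cell library and 3.49, 1.70 and 4.86 in BMT replicates 1 to 3, and 3.30, 2.95, 1.68 and 3.27 in Mono (0.27 ± 0.17, limma adjusted p = 0.221, higher in 4 of 4 libraries). BMT replicate 2 had the lowest Csf2ra of all libraries in each of the 8 clusters other than the S100a+ cluster, so that its values varied by library. Csf2rb averaged 0.159, 0.152, 0.172 and 0.324 in resident mLC and 0.106, 0.225, 0.192 and 0.13 in Mono (0.19 ± 0.25, limma adjusted p = 0.605).

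Csf1 was also found at a low level among donor cells, and less in resident mLC. Mono averaged 0.0676 CP10K in the T-cell library and 0.0971, 0.138 and 0.0324 in BMT replicates 1 to 3, and resident mLC 0.00173, 0, 0.0202 and 0, on 3, 0, 20 and 0 UMIs. The groups did not overlap, and the test gave -0.77 ± 0.25 (limma adjusted p = 0.0174, lower in 4 of 4 libraries), with an adjusted p of 0.106 without BMT replicate 1. Csf1 reached the filter, a mean of 0.1 CP10K over all library and cluster values, only with its S100a+ value of 1.74 counted. Its means over libraries in Mono (0.0838) and resident mLC (0.00547) were under 0.1. The same holds for its entry into every donor cluster comparison below. Csf1 UMIs lay in 3.66 to 4.88% of Mono and 0 to 0.851% of resident mLC, and the part of RNA from the S100a+ cluster, where Csf1 was highest, in these values was not tested.

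**Figure D3:**
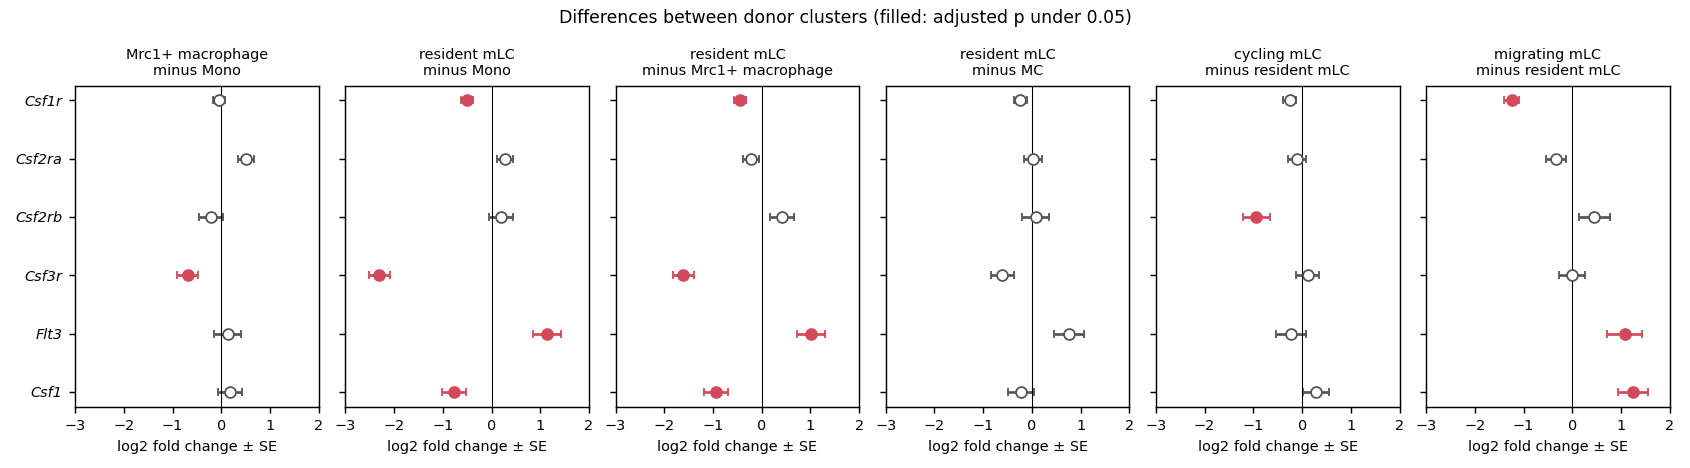
Log2 fold change on log2(CP10K + 0.1) with its standard error (x axis) of the 5 receptors and Csf1 (rows) in 6 comparisons between donor clusters (panels), filled where the limma adjusted p was under 0.05. Csf3r (-2.30) and Csf1r (-0.50) lie left and Flt3 (1.14) right for resident mLC minus Mono, and Csf1r (-1.24) lies left and Flt3 (1.08) right for migrating minus resident mLC.

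Against Mrc1+ macrophages the same 3 receptors were called in the same directions, where 31.5% of all genes were. Both comparisons share the resident mLC values, so the repeat adds no independent support. Csf3r averaged 0.136 CP10K in Mrc1+ macrophages of the T-cell library and 0.434, 0.398 and 0.444 in BMT replicates 1 to 3, above every resident value (-1.61 ± 0.22, limma adjusted p = 2.41e-06, 4 of 4 libraries). Csf1r gave -0.45 ± 0.12 (limma adjusted p = 0.0061, 4 of 4 libraries). This call was lost when BMT replicate 1 was left out (0.141), and with means of the deposited log values (0.262). Flt3 in Mrc1+ macrophages averaged 0.0204, 0.00156, 0.0378 and 0.314 in that order, and the last value rests on 2 UMIs in 45 cells of a median 2214 UMIs. It was 2.02-fold higher in resident mLC (1.01 ± 0.28, limma adjusted p = 0.00741, higher in 3 of 4 libraries), and leaving out BMT replicate 2 gave an adjusted p of 0.114, leaving out the T-cell library one of 0.0576. Csf1, at 0.211, 0.0685, 0.22 and 0 in Mrc1+ macrophages, was lower in resident mLC as well (-0.94 ± 0.25, limma adjusted p = 0.00432, lower in 3 of 4 libraries and at 0 in both clusters of the other), with 0.0512 when the T-cell library was left out.

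The MC cluster, which lies between monocytes and mLC in the study's account, gave no receptor call against resident mLC, where 15.7% of all genes were called. Flt3 averaged 0.131 CP10K in MC of the T-cell library and 0.0363 and 0.0347 in BMT replicates 1 and 2, below the resident value of each library (0.76 ± 0.31, limma adjusted p = 0.102, 3 of 3 libraries). Without BMT replicate 3, which has 18 MC, its adjusted p was 0.0307, and by voom on summed UMIs it was 0.000854. Csf3r averaged 0.0469, 0.179 and 0.184 in MC (-0.61 ± 0.24, limma adjusted p = 0.0876, lower in 3 of 3 libraries), and voom gave 0.00993. Csf1r in MC was 5.46, 4.43 and 4.84 in that order (-0.24 ± 0.13, limma adjusted p = 0.253).

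Mrc1+ macrophages and Mono differed in 1 receptor, with 7.86% of all genes called. Csf3r was 1.62-fold lower in the macrophages (-0.69 ± 0.22, limma adjusted p = 0.0474, lower in 3 of 4 libraries). The call was lost on leaving out BMT replicate 1 (0.177), BMT replicate 2 (0.382) or the T-cell library (0.26). Csf2ra gave 0.50 ± 0.17 (limma adjusted p = 0.0657, higher in 4 of 4 libraries), where the Mrc1+ macrophages of BMT replicate 3 reached 8.11 CP10K at their low depth.

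Migrating mLC, which carry the markers Ccr7, Cd83, Nr4a3 and Ccl22 at a summed 49.8 and 59.8 CP10K (migrating list), were compared with resident mLC in BMT replicates 1 and 2, the libraries with 20 or more of them. Csf1r was lower and Flt3 higher, 2 of the 5 receptors, and 20.1% of all genes were called. Csf1r was at 1.47 against 3.27 CP10K in replicate 1 and at 1.88 against 5.19 in replicate 2, 2.37-fold lower (-1.24 ± 0.15, limma adjusted p = 2.15e-06, 2 of 2 libraries). Outside the fit, the 16 migrating mLC of the T-cell library averaged 1.51 under their resident mLC, and the 2 cells so named in BMT replicate 3, with the migrating list at 0.649, averaged 2.64. The Csf1r call held without each library in turn, although without replicate 1 or 2 the migrating arm is 1 library, whose spread is taken from the other clusters of the fit.

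Flt3 in migrating mLC averaged 0.485 CP10K in replicate 1 and 0.430 in replicate 2, above the resident values of 0.124 and 0.259, and 1.42 in the 16 cells of the T-cell library. The fold was 2.11 (1.08 ± 0.36, limma adjusted p = 0.0345, 2 of 2 libraries). Flt3 passed the filter on low genes only with these migrating values counted, so the call is not independent of it. The adjusted p was 0.422 without BMT replicate 1, 0.209 without replicate 2 and 0.0519 without replicate 3, with the same single migrating library in the first and the second of these fits. Markers of conventional dendritic cells (Xcr1, Clec9a, Zbtb46, Cd209a; conventional dendritic cell list) summed to 0.597 and 0.972 CP10K in migrating and 0.337 and 0.244 in resident mLC of these libraries, and their part in the Flt3 difference was not tested.

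Transcripts of Csf1r and Flt3 were also found in the same cells. In BMT replicate 2, 455 of 766 migrating mLC had a Csf1r UMI, 134 had a Flt3 UMI and 80 had both. Among its 1175 resident mLC, 1061 had Csf1r, 172 had Flt3 and 163 had both. In BMT replicate 1, 8 of the 19 migrating mLC with Flt3 also had Csf1r, of 55 in 91 cells. The overlap that the separate shares alone would give was not computed, so these counts do not show that the genes go together. At this depth a cell without a UMI may still hold the transcript.

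Csf2rb averaged 0.394 and 0.281 CP10K in migrating against 0.152 and 0.172 in resident mLC (0.45 ± 0.31, limma adjusted p = 0.323, higher in 2 of 2 libraries), and voom on summed UMIs gave 0.00341. Csf2ra was at 2.87 and 1.27 against 3.49 and 1.70 (-0.34 ± 0.21, limma adjusted p = 0.268), and Csf3r was level (-0.01 ± 0.27, limma adjusted p = 0.99). Csf1 averaged 0.170 and 0.212 in migrating mLC, against 0 and 0.0202 in resident mLC, 2.37-fold higher (1.25 ± 0.31, limma adjusted p = 0.00568, 2 of 2 libraries). Its 41 UMIs in replicate 1 lay in 3.30% of 91 cells, and without that replicate the adjusted p was 0.183.

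Cycling mLC differed from resident mLC in Csf2rb alone among the receptors, with 10.7% of all genes called. Csf2rb averaged 0.0162 CP10K in cycling mLC of the T-cell library and 0.0610 and 0.0791 in BMT replicates 1 and 2, on 2, 6 and 30 UMIs, below every resident value (-0.94 ± 0.27, limma adjusted p = 0.026, 3 of 3 libraries). The adjusted p rose to 0.126 with both paralogs summed and to between 0.0537 and 0.169 when any 1 of the 4 libraries was left out: 0.0697 for BMT replicate 1, 0.169 for replicate 2, 0.0537 for replicate 3 and 0.136 for the T-cell library. Flt3 was at 0.146, 0.0979 and 0.162 in cycling mLC (-0.23 ± 0.31, limma adjusted p = 0.719, lower in 3 of 3 libraries).

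The S100a+ cluster held the highest levels of Csf3r and Csf1 among donor cells, and only BMT replicate 2 has 20 or more of its cells, so no test was made. Csf3r averaged 7.89 CP10K in 9 cells of the T-cell library, 7.64 in 11 cells of BMT replicate 1 and 5.13 in 594 cells of replicate 2. Csf1 averaged 5.50, 21.6 and 1.74 in the same order, on 13, 60 and 447 UMIs. The next highest Csf3r value in a cluster of 20 or more cells was 0.931 (Mono, replicate 2), and the next highest Csf1 value 0.231 (Hmox1+ monocytes, replicate 2). The neutrophil list was high in the same cells: Retnlg averaged 27.5, 80.4 and 41.7 and Cxcr2 8.48, 3.86 and 3.89. Csf1r was at 0 UMIs in the 9 cells, 2.08 CP10K in the 11 and 3.82 in the 594, of which 414 had a Csf1r UMI, 409 a Csf3r UMI and 292 both.

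Along the latent time that the authors assigned to each donor cell from RNA velocity, a fraction from 0 to 1 read here in 5 equal bins, Csf1r was lowest in the last bin of the 3 libraries with 20 or more cells there, on 20 to 77 cells. In BMT replicate 2 it averaged 5.99, 4.75, 3.88, 4.67 and 1.09 CP10K from the first bin to the last. In the same order it averaged 5.62, 5.47, 4.02, 4.19 and 2.38 in the T-cell library and 5.77, 5.04, 3.20, 2.73 and 2.42 in BMT replicate 1. BMT replicate 3 had its lowest value in the first bin, at 3.43 on 21 cells, then 6.14, 6.01 and 6.07, and its last bin, with 5 cells, was not read. Flt3 was highest in the fourth bin in all 4 libraries, at 0.326 in the T-cell library and 0.136, 0.366 and 0.509 in BMT replicates 1 to 3, and Csf3r in the last bin of the 3 libraries where that bin was read, at 1.45, 2.10 and 18.7. Csf1 was highest in that last bin as well, at 0.636, 1.67 and 2.40, and Flt3 was at 0 there in BMT replicates 1 and 2. Csf3r and Csf1 were highest in the S100a+ cluster, which the study names among its trajectory end points. Which clusters fill each bin was not read, and the part of that cluster in the low Csf1r was not tested. Latent time was itself derived from transcripts of these cells, so these values have no test.

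The labels BMT plus T-cells and BMT were compared over the 3 clusters with 20 or more cells in all 4 donor libraries (Mono, Mrc1+ macrophages and resident mLC). Of the 7 members 5 passed the filter and none was called; limma called 0% of 7345 genes, of which 352 had an unadjusted p under 0.05. Csf3r gave -0.67 ± 0.33 (limma adjusted p = 0.949, under all 3 BMT libraries) and Csf2rb -0.53 ± 0.26 (0.949, under all 3). Csf1r gave -0.04 ± 0.30, Flt3 -0.03 ± 0.48 and Csf2ra 0.40 ± 0.53. Without BMT replicate 3 the Csf3r difference was -0.87, a value that rests on 1 library under BMT plus T-cells. Against BMT replicate 3 alone, with which the T-cell library shares the form of its short name, it was -0.27, that of Csf2rb -0.50, Flt3 -0.80, Csf2ra -0.32 and Csf1r -0.30, 1 library against 1 with no test. Whether those names mark an experiment is not stated, and label and experiment cannot be told apart on these libraries.

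Host myeloid cells came as 1 library, so their values carry counting intervals only, pooled as UMIs per 10000. Of its 781 cells 133 had under 500 genes and 208 over 20% mitochondrial UMIs, and the study's filter on both would keep 165 of 276, 58 of 170, 102 of 161 and 57 of 90 cells of clusters 1 to 4. In the kept cells Csf1r was at 3.05, 3.05, 2.48 and 0.389 and Flt3 at 0.356, 0.115, 0.288 and 0.82 in these clusters, an alternative chosen after seeing the data. Clusters 1 to 4 carried the Langerhans-like cell markers at a summed 12.8, 50.7, 18.7 and 33.1 CP10K, and cluster 4 also the migrating list at 29.5. Csf1r was at 2.86 (95% interval 2.56 to 3.19) in cluster 1, 2.65 in cluster 2, 2.49 in cluster 3 and 0.418 (0.271 to 0.618) in cluster 4. Flt3 was at 0.326, 0.0888, 0.228 and 0.703 in that order, and the interval of cluster 4, 0.507 to 0.95, lies above those of the other 3 (0.586 to 1.12 in the kept cells, also above). The host cluster with migrating markers thus held the lowest Csf1r and the highest Flt3 of the 4.

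Csf2rb was at 2.79 UMIs per 10000 in host cluster 1, 1.76 in cluster 2, 2.32 in cluster 3 and 4.75 (4.22 to 5.34) in cluster 4, where Csf2ra was at 2.63, 1.98, 2.58 and 2.18. Csf3r had 7 UMIs in all 781 host cells. Csf1 and Il34 sat mainly in host cluster 5, with 35 of 39 and 67 of 72 UMIs, a cluster of 43 cells with keratinocyte markers at a summed 349 CP10K. Keratinocyte markers were also at 39.5 in cluster 2, where Il34 had 0 UMIs.

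Csf2rb was higher in host than in donor cells, and Csf1r was lower by a margin that was narrow for some clusters. The donor and host tables were made separately, so the values stand side by side without a test. Pooled per 10000 UMIs, Csf2rb lay between 0.126 and 0.174 in resident mLC of the 4 donor libraries and between 1.76 and 4.75 in host clusters 1 to 4. Csf2ra covered 1.59 to 3.42 in the former and 1.98 to 2.63 in the latter, and Csf2rb2 covered 0.678 to 1.59 and 0.900 to 1.42, so the ranges of these genes overlapped. Csf1r covered 3.38 to 5.11 in resident mLC and 0.418 to 2.86 in the host clusters. In cells that pass the study's filter Csf2rb covered 0.126 to 0.174 and 1.77 to 4.84, and Csf1r 3.37 to 5.11 and 0.389 to 3.05. There the Csf1r interval of resident mLC in BMT replicate 1, 3.02 to 3.76, overlapped those of host clusters 1 (2.69 to 3.45) and 2 (2.62 to 3.52). The low host end is cluster 4 with its migrating markers, and donor migrating mLC averaged 1.47 and 1.88 CP10K in BMT replicates 1 and 2. Over all cells Csf2rb had 110, 591, 1204 and 37 UMIs in the T-cell library and BMT replicates 1 to 3 (in 11.7 to 18.5% of cells) and 944 in the 781 host cells (44.3%). Csf2rb2, read from the same table, was found in 43.8 to 69.0% of donor and 30.5% of host cells. With up to 38.7% of the words of their first 500 bases in common, and the tables made separately, how reads were split between the paralogs in each table was not tested.

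**Figure D4:**
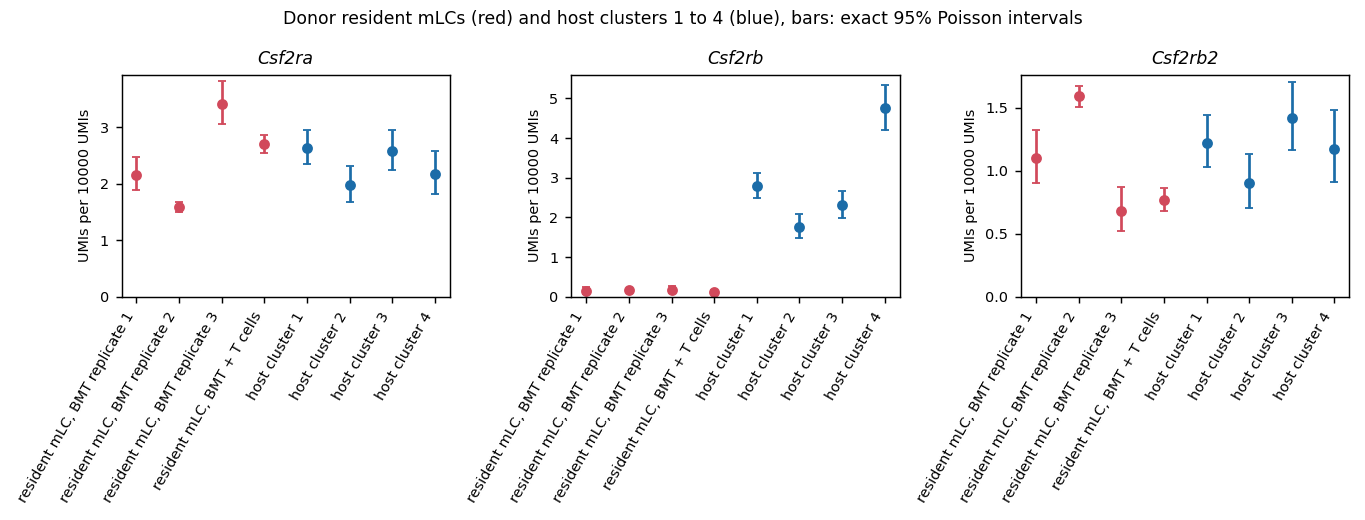
Csf2ra, Csf2rb and Csf2rb2 (panels) as UMIs per 10000 UMIs pooled over cells (y axis, linear) in resident mLC of the 4 donor libraries (red) and host clusters 1 to 4 (blue), with exact 95% Poisson intervals for counting error only. Csf2rb stands at 1.76 to 4.75 in the host clusters and close to 0 in the donor libraries, and the other 2 genes cover overlapping ranges.

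Each receptor had its own set of most similar genes over the 27 library and cluster profiles of donor cells, measured by Pearson's r on log2(CP10K + 0.1) after removing each library's mean. The profiles share libraries and depth, so r is a description only. Csf1r was most like Lrrc25 (0.82), Lgals9 (0.82) and Pilra (0.81), Csf3r like Fcgr4, Tpd52 and Acod1 (0.87 each) and Flt3 like Ly75 (0.86), Mtmr1 (0.85) and Serpinb6b (0.83). Csf2ra was most like Snhg20 (0.82), Nol8 (0.78) and Rsrp1 (0.75), and Csf2rb like Slc25a1 (0.78), Prmt2 and Ube2h (0.70 each). Csf1 in donor cells was most like Hdc (0.85), Ccl3 (0.80) and the neutrophil gene Retnlg (0.79). The S100a+ cluster gave 1 of the 27 profiles, with Csf1 at 1.74 and Csf3r at 5.13 CP10K. The weight of that profile in the r of these genes was not tested. Between members, Csf1r and Flt3 had an r of -0.77. Over the 10 keratinocyte profiles Csf1 was most like Ddi2, Gm20219 and Slc35f5 (0.99 each), and Il34 like Chit1 (0.99), Adora2b (0.99) and Slc43a1 (0.98).

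The genes around these receptors were read from 7 lists of 72 genes: other ligands, partner receptors, JAK-STAT genes, SRC, RAS, PI3K and MAPK genes, negative regulators, survival and cycle targets, and transcription factors of the receptor genes. Between resident mLC and Mono 32 of the 51 listed genes that passed the filter were called, 10 higher and 22 lower, where 32.7% of all genes were called. The feedback inhibitor Socs3 (-2.64) and the adaptor Dok2 (-2.59) were lower and the related adaptor Dok3 (2.18) was higher, all by log2 fold change with limma adjusted p of 6.38e-08, 1.74e-09 and 8.32e-09. JAK-STAT genes gave 3 lower of 6 (among them Stat3 at -0.91 and Jak1 at -0.61), and transcription factors 4 lower of 5, among them Ets2 (-1.66) and Irf4 (-1.31). Of the partner receptors, the stem cell factor receptor Kit was higher (1.27), and Trem2, a lipid receptor of macrophages, was lower (-2.55), as was Sdc1, a proteoglycan that binds interleukin-34 (-1.43). Survival and cycle targets gave 2 higher of 9, with the cyclin Ccnd1 at 2.30, and 5 lower, with the cycle inhibitor Cdkn1a at -1.89 and the kinase Pim1 at -1.85. SRC, RAS, PI3K and MAPK genes gave 6 higher of 13 and 3 lower, such as Pik3cd (-1.28).

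Migrating against resident mLC, 22 of 51 listed genes were called, 16 higher and 6 lower, against 20.1% of all genes. The STAT genes that act under the GM-CSF receptor were higher, Stat5a at 2.53 and Stat5b at 1.23, with Stat3 at 1.19, and no JAK-STAT gene was lower. Irf4 (3.35), the cyclin Ccnd2 (4.08) and Cdkn1a (2.73) were higher, Spi1, a transcription factor of the receptor genes, was lower (-0.51), and Dok3 was lower (-3.21). The part of Spi1 in the Csf1r differences was not tested. Against Mrc1+ macrophages, 28 of 51 were called in resident mLC (10 higher, 18 lower, against 31.5% of all genes), with Trem2 at -3.68, Socs3 at -2.38 and Spi1 at 0.60. Against MC it was 15 of 51 (5 higher, 10 lower, against 15.7%), with Dok2 at -2.58, Irf4 at -2.50 and Il3ra, the interleukin-3 receptor alpha subunit, at 0.83. Mrc1+ macrophages against Mono gave 6 of 51 (11.8%, against 7.86% of all genes), among them Dok3 at 1.19, and cycling against resident mLC 6 of 51 (11.8%, against 10.7%), among them Trem2 at 1.67. Both shares are near that of all genes. The labels gave 0 of 49.

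In keratinocytes 17 of 36 listed genes were called between differentiated and basal cells (8 higher, 9 lower, against 30.3% of all genes). Kitl, the ligand of Kit, was lower in differentiated keratinocytes (-1.82) and Tslp, a cytokine that acts on dendritic cells, was higher (0.75), and Ptprz1, a phosphatase that binds interleukin-34, was lower (-1.86). The transcription factor Cebpa (1.64) was higher and the cyclin Ccnd2 (-2.08) was lower. Follicular against basal keratinocytes gave 18 of 36 (11 higher, 7 lower, against 25.5%), with Runx1 at 2.95, Cebpb at 2.53, Egr2 at 3.09 and Tslp at -1.50.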

How the data were processed

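Single-cell RNA was sequenced by the authors from 5' droplet libraries. Per the submitters' processing notes kallisto, bustools, Seurat and the build GRCm38 were used, and the study's methods name DoubletFinder for doublets and Leiden clusters, whose deposited names were kept. The deposited tables hold natural log values, ln(1 + UMIs per 10000) of each cell. The authors also deposited latent time as a fraction and mitochondrial UMIs as a percentage per cell. Whole UMIs were recovered from 100% of values (tolerance 0.001), and 0 columns of values were left unmapped. Linear CP10K was averaged per library and cluster with 20 or more cells, and log2(CP10K + 0.1) was fitted with limma 3.58.1 (trend, robust, statmod 1.5.0, R 4.3.3), with library as a block, over all genes with a mean of 0.1 CP10K or more. P values were adjusted by Benjamini-Hochberg over all genes tested and called under 0.05, in 9 comparisons. The label comparison averaged 3 clusters without a block and assumes that its lone library varies like the others. Counts, thinned shares and exact 95% intervals came from Python 3.11.15 (pandas 2.3.3, numpy 2.4.6, scipy 1.17.1), and intervals and the floor of 3 UMIs cover counting error only. The scripts were tested on simulated data. Named genes were the 7 members, up to 3 called genes per list and comparison with the largest change that moved one way in every library, and the 3 genes most similar to each member. Members and lists were chosen with earlier results of these data known. Alternatives were other pseudocounts (0.01 and 1), no filter, 50 or more cells, means of the deposited values, voom on summed UMIs, only the clusters compared, the study's cell filter (500 genes, 20% mitochondrial), its fold threshold and leaving out each library. Differences between the authors' groups were not taken from any deposited comparison. Fewer cells of a type within a cluster and less RNA per cell cannot be told apart in these means. Some listed genes are not reported here by name.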

Additional observations from a re-analysis of the deposited data

Results flagged for a closer look

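In 3 cases the T-cell library moved one way and every BMT library with both clusters the other way. Each sets 1 library against 2, and none of these differences was tested. For Csf2rb between resident mLC and MC the log2 difference was 0.44 in the T-cell library and a mean of -0.32 in BMT replicates 1 and 2, a gap of 0.76. For Csf1 between cycling and resident mLC it was -0.02 against 0.65, a gap of -0.67. For Csf2ra between cycling and resident mLC it was 0.06 against -0.24, a gap of 0.30.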

How the results depend on the processing

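Of 175 alternatives to the 16 called member results, 137 were counted as leaving the call, 36 ended it and 0 turned its direction. A keratinocyte library alone gives no test, so its results were counted by whether the log2 fold change stayed within 1 SE. In the BMT and the BMT plus T-cells library, Il34 (0.89 and 0.93) and Csf1 (0.78 and 0.67) in differentiated against basal keratinocytes did. They are among the 137 without a test. Il34 in follicular against basal keratinocytes (-0.51 and -0.77) did not, and makes up the other 2. Of 320 alternatives to uncalled results, 14 gave a call and 36 turned the direction. The number of receptors called was 3 for resident mLC against Mono, 1 with a log2 fold beyond 2, and 2 to 3 leaving out a library (2 without BMT replicate 1 or 2). Against Mrc1+ macrophages it was 3, 2 with the deposited values, 1 with only the 2 clusters in the fit, 0 beyond the fold of 2, and 2 to 3 leaving out a library (3 without BMT replicate 3 alone). Against MC it was 0, and 1 with a pseudocount of 0.01, with means of the deposited values, with only the 2 clusters, with 50 or more cells or with the study's cell filter, 2 by voom, and 0 to 1 leaving out a library. For Mrc1+ macrophages against Mono it was 1, and 0 with a pseudocount of 0.01, no filter, only the 2 clusters or the fold of 2, and 0 to 1 leaving out a library. For migrating against resident mLC it was 2, and 1 with a pseudocount of 0.01, no filter or the study's cell filter, 4 with only the 2 clusters, 0 beyond the fold of 2, and 1 to 2 leaving out a library. For cycling against resident mLC it was 1, and 0 with a pseudocount of 1, means of the deposited values, only the 2 clusters, 50 or more cells, the paralogs summed, the fold of 2 or any library left out. For the label it was 0, and 0 to 1 leaving out a library. Of the ligands, 2 were called in differentiated against basal keratinocytes, and 1 without the filter. The paralogs were summed as an alternative chosen after seeing the data. No cause of these changes was tested. The share of all genes called under each alternative is not given here, so these counts cannot be set against it.

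Log2 fold changes that turned direction were all of uncalled results. For resident mLC against Mono, voom gave Csf2ra -0.021 and Csf2rb -0.14, and leaving out a library moved Csf2rb from -0.048 (BMT replicate 3) to 0.37. Against Mrc1+ macrophages Csf2ra was 0.043 with the deposited values. Against MC, Csf2ra was -0.0052 with the deposited values, -0.20 by voom, and -0.088 (T-cell library) to 0.11 leaving out a library. Csf2rb there was -0.014 with the deposited values, -0.20 by voom, -0.065 with only the 2 clusters, -0.051 with 50 or more cells, -0.22 with the paralogs summed, and -0.072 (T-cell library) to 0.30 leaving out a library. For Mrc1+ macrophages against Mono, Csf1 was -0.097 with a pseudocount of 0.01, -0.0033 with the deposited values and -0.068 (T-cell library) to 0.36 leaving out a library. Csf1r was 0.11 by voom, Csf2rb 0.13 with the paralogs summed, and Flt3 -0.013 with the deposited values, -0.77 by voom, -0.16 with 50 or more cells, -0.33 with the study's cell filter and -0.089 (BMT replicate 3) to 0.34 leaving out a library. For migrating against resident mLC, Csf3r was 0.58 with a pseudocount of 0.01, 0.20 by voom and -0.095 to 0.13 (BMT replicate 1) leaving out a library. For cycling against resident mLC, Csf1 was -0.061 with the study's cell filter and -0.093 (BMT replicate 1) to 0.47 leaving out a library, and Csf3r -0.25 with 50 or more cells. For the label, leaving out a library moved Csf1r from -0.15 to 0.086 (BMT replicate 3) and Csf2ra from -0.0029 (BMT replicate 2) to 0.76, Csf2ra was -0.32 against BMT replicate 3 alone, and Flt3 was 0.18 with a pseudocount of 0.01 and 0.41 with all cells averaged. No paired analysis was possible because no compared labels share 2 or more replicate numbers. Low UMI numbers limit Csf1, Csf2rb, Csf3r and Flt3 in resident, cycling and migrating mLC.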
